A study of Mus musculus with 75 samples.

Results

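The integrated stress response was followed through 9 of its genes in mouse skin fibroblasts, namely Atf3, Atf4, Atf5, Ddit3, Trib3, Asns, Chac1, Ppp1r15a and Psat1. They were chosen by name as ATF family and stress response genes, and are 9 of the 24984 genes in the count tables. All 9 passed the filter on low counts in each of the 5 RNA-seq experiments. Their RNA was followed in 44 libraries, and the accessibility of their promoters in 13 ATAC-seq libraries, an assay that marks open chromatin by transposase insertion.

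In the integrated stress response, kinases that sense unfolded protein, amino acid shortage, viral RNA or heme shortage phosphorylate eIF2alpha. General translation then slows, while the mRNA of the transcription factor ATF4 is translated more, so that ATF4 protein can rise without its mRNA. ATF4 and its partners bind C/EBP-ATF response elements (CAREs) at genes of amino acid supply, at other transcription factors such as ATF3, ATF5 and CHOP (the product of Ddit3), and at genes that end the response.

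Primary skin fibroblasts of untreated C57BL/6 mice, taken per the methods from females 2 months old, were grown to passages 1, 3, 5 and 7 (P1, P3, P5 and P7), with 4 RNA-seq libraries at each passage and 4, 3, 3 and 3 ATAC-seq libraries. In the other experiments, C57BL/6 skin fibroblasts received lentivirus. The Atf3 knockdown (in pre-senescent cells) had 3 libraries for each of its hairpins, sh5 and sh6, beside 3 with a non-targeting hairpin. The Tead1 knockdown was laid out alike, with hairpins sh3 and sh4. The E2f4 knockdown (in P3 cells) used a single hairpin, sh1, with 3 libraries and 3 non-targeting ones, and the E2f4 overexpression (in P4 cells, under doxycycline) had 2 libraries and 2 of the vector. For these experiments the methods name newborn and 2-month-old mice as donors without saying which served where. The labels do not tie libraries to animals or cultures, so p-values measure the spread between these libraries, which may be technical.

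The total count per library was between 9147324 and 27552949. All 10 fibroblast markers were detected in every group. At P1 the cultures also held RNA of other cells. The summed level of 10 macrophage markers was 310 to 485 CPM (counts scaled to a fixed library total, after TMM) at P1 and 22.9 to 64.5 CPM from P3 on. For 8 keratinocyte markers it was 46.0 to 311 CPM at P1 and 1.58 to 3.51 CPM later. For 6 endothelial markers it was 140 to 143 CPM at P1 and 7.33 to 10.03 CPM at P7, and for 8 skeletal muscle markers 154 to 249.5 CPM at P1 and 30.2 to 110 CPM later. At P7, Krt14, Krt1, Myog, Myod1, Ckm and Cldn5 were at 0. In bulk RNA, fewer cells of a type and less RNA per cell cannot be told apart, and the part of these cells in the differences from P1 was not tested. Comparisons of P7 with P3 are given as well.

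Because the data include promoter accessibility, the promoters were searched for 4 motifs on both strands, from 250 bases before the start to 50 after it (RefSeq, GRCm38.p6). All 9 genes had at least 1 promoter in RefSeq, and Atf5 and Psat1 had 2, which gave 11 windows. The CARE, TGATGNAA, was present in 4 of the 11, those of Atf3, Trib3, Asns and Chac1, and in 3.97% of all 32851 promoters of this length. The cAMP response element, TGACGTCA, was found at Ppp1r15a (1.79% of all promoters), and the AP-1 site, TGAGTCA, at Ddit3 (5.2%). None held the endoplasmic reticulum stress element, CCAAT followed 9 bases later by CCACG, which 0.119% of all promoters held. Each of the 6 windows with a motif held a single motif, so none overlapped another. These windows follow with the motif in capitals, read 5′ to 3′ on the strand of the gene.
Atf3 (CARE; chr1:191183284-191183583, minus strand): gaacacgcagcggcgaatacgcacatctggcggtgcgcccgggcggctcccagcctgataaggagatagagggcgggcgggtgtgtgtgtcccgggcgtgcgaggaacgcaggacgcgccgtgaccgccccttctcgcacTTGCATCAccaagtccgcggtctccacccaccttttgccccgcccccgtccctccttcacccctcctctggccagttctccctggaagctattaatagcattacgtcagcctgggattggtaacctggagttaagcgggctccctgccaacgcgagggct
Trib3 (CARE; chr2:152344011-152344310, minus strand): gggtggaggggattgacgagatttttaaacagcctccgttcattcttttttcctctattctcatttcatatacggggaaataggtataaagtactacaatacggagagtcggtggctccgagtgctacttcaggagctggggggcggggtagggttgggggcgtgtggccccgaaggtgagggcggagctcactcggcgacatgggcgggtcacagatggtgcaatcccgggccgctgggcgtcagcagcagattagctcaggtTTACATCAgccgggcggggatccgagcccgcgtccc
Asns (CARE; chr6:7693160-7693459, minus strand): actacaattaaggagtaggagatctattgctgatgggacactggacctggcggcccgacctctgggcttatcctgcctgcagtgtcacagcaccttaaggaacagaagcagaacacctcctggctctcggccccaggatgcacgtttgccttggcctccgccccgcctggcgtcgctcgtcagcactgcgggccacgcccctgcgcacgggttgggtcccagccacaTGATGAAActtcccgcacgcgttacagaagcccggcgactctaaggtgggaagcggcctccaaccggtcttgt
Chac1 (CARE; chr2:119350992-119351291, plus strand): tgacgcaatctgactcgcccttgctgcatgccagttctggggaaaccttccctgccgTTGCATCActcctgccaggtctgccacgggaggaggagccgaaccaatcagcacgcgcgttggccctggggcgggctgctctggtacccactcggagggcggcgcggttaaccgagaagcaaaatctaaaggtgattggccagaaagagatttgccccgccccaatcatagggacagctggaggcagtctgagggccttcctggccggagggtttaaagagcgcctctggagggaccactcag
Ppp1r15a (cAMP response element; chr7:45526219-45526518, minus strand): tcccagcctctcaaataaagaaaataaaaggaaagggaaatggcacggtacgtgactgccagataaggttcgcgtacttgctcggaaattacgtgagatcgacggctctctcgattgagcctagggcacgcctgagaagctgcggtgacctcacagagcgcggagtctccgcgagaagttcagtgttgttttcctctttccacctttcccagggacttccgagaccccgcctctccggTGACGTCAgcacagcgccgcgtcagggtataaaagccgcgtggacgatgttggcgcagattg
Ddit3 (AP-1 site; chr10:127290543-127290842, plus strand): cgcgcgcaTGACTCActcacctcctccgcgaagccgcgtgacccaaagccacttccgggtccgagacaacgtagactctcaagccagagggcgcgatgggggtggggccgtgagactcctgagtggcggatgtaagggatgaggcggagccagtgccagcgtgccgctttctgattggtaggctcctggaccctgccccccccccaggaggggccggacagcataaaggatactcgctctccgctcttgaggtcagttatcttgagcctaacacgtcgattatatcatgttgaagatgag

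The CARE lay at bases -110 to -103 from the start of Atf3, -193 to -186 from that of Chac1, -23 to -16 from that of Asns, and 15 to 22 past the start of Trib3. A match of letters is a description of these windows and not evidence of binding, and a window without a match says only that these letters were not in it.

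Levels of different genes were compared per length, as CPM per kilobase of exon. At P1 (mean ± SD, n = 4) Atf4 led with 175 ± 3.24, followed by Psat1 (153 ± 5.91), Atf5 (126 ± 5.32) and Asns (68.5 ± 1.27). Trib3 (20.6 ± 3.0), Ppp1r15a (17.8 ± 0.505), Ddit3 (15.8 ± 1.28) and Chac1 (15.7 ± 1.73) formed a lower group. In it Ppp1r15a and Ddit3 differed by more than either SD, and the other neighbours by about their spread or less. Atf3 was the lowest, with 3.93 ± 0.143. At P7 Atf5 had passed Atf4 (228 ± 24.0 against 180 ± 23.8), Psat1 (82.0 ± 11.7) and Asns (76.7 ± 8.22) lay within each other's spread, and so did Trib3 (39.1 ± 6.1) and Ddit3 (38.2 ± 5.96). Ppp1r15a had 28.6 ± 3.09, Chac1 21.3 ± 0.992 and Atf3 7.48 ± 3.96 CPM per kilobase.

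With passage, the RNA of Ddit3, Trib3, Atf5, Atf3, Ppp1r15a and Chac1 rose from P1 to P7, that of Psat1 fell, and that of Atf4 and Asns did not pass the test. Calls required both a change of more than 2-fold and an adjusted p below 0.05. By this rule 1 of the 9 was called higher at P7 than at P1 (Ddit3), against 8.1% of the 13442 genes tested, and 0 were called lower, against 13.3%. By the adjusted p alone 6 were higher, against 30.5% of genes, and 1 was lower, against 31.9%. The median log2 fold change of the 9 was 0.69, and that of all genes tested -0.010. From P3 to P7, 0 of the 9 were called higher and 1 lower (Psat1), against 4.44% and 7.41% of genes. By the adjusted p alone 4 were higher and 2 lower, against 24.8% and 26.5%, so against P3 the share lower was close to that of all genes.

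**Figure D1:**
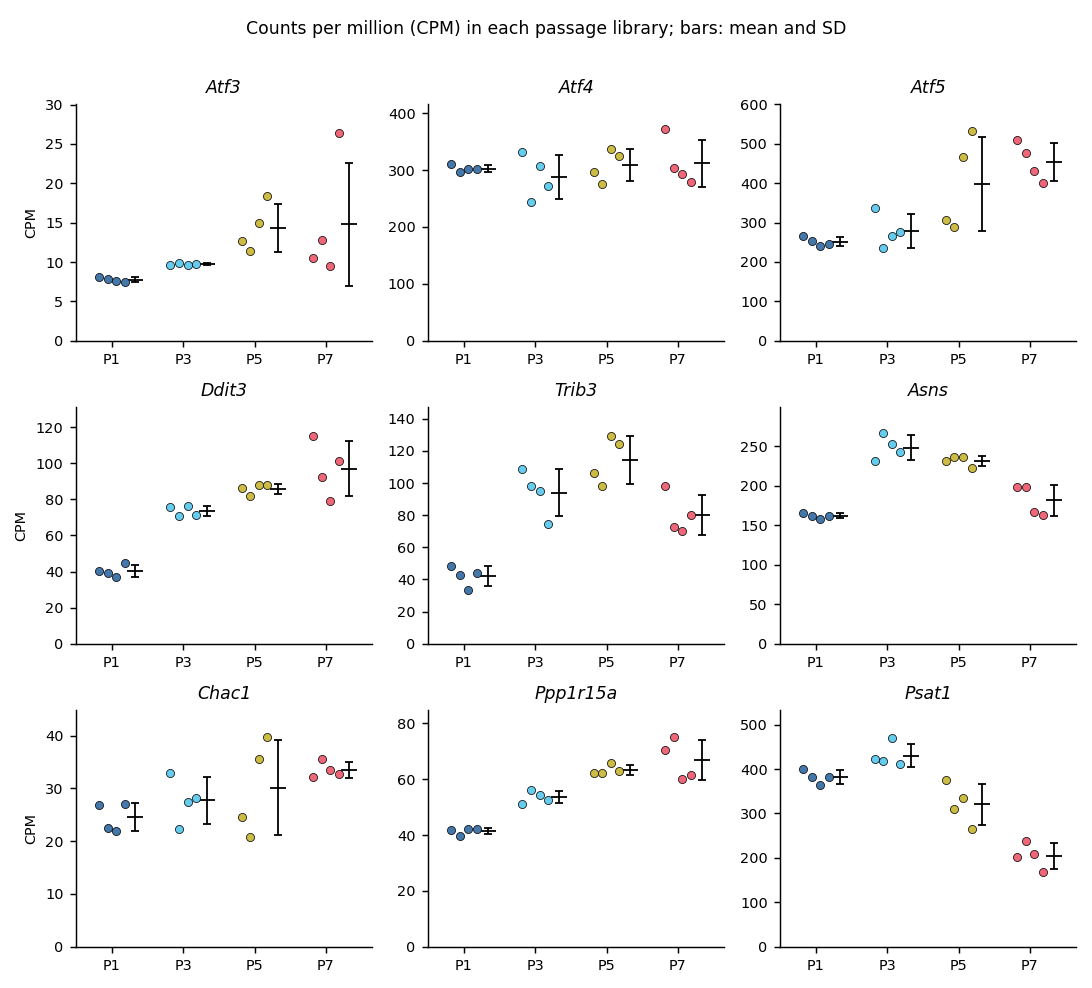
CPM of each member (vertical axes, from 0, scaled per gene) in the 16 passage libraries (horizontal axes, P1 to P7); points are libraries, and the bars beside them mean and SD (n = 4). Ddit3 and Ppp1r15a stood higher at each later passage on average, Psat1 was lowest at P7, Atf4 ran from 243 to 372 CPM with overlap of all passages, and a single P7 library carried 26.4 CPM of Atf3.

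Atf3 encodes a stress-induced factor of the ATF family that can pair with Jun proteins. Its libraries held 8.08, 7.88, 7.66 and 7.43 CPM at P1, and 9.59, 9.88, 9.61 and 9.8 CPM at P3. They held 12.7, 11.4, 15.0 and 18.3 CPM at P5, and 10.5, 12.8, 9.45 and 26.4 CPM at P7. Every library from P3 on was above every P1 library, the P5 libraries were all above those of P3, and the P7 libraries overlapped both P3 and P5. Atf3 was 1.91-fold higher at P7 than at P1 (log2 0.93 ± 0.24 SE, adjusted p = 0.00221) and 1.52-fold higher than at P3 (log2 0.61 ± 0.24, adjusted p = 0.0374). The fourth P7 library decided the size of these values. Without it, the log2 fold change of Atf3 was 0.50 against P1 (adjusted p = 0.00979) and 0.17 against P3 (adjusted p = 0.373), and against P5 it turned from 0.04 to -0.39 (adjusted p = 0.0866).

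Atf4 encodes the central factor of the response, which is regulated mainly at translation. Its RNA was 310, 297, 301 and 302 CPM at P1 and 372, 304, 292 and 279 CPM at P7, and the groups overlapped. The difference was 0.04 ± 0.10 on the log2 scale (adjusted p = 0.727), and against P3 it was 0.11 ± 0.10 (adjusted p = 0.379). Protein was not measured here.

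Atf5, another factor of this family that is also under translational control, behaved otherwise. Its libraries held 266, 253, 241 and 246 CPM at P1, and 337, 236, 267 and 275 CPM at P3. At P5 they held 307, 288, 465 and 531 CPM, and at P7 509, 476, 431 and 400 CPM. The P5 libraries fell into a lower and a higher pair. The same libraries, replicates 3 and 4, were the higher ones for Atf3, Chac1 and Trib3, and narrowly for Ddit3 and Ppp1r15a. Atf5 was 1.8-fold higher at P7 than at P1 (log2 0.85 ± 0.16, adjusted p = 9.23e-05) and 1.63-fold higher than at P3 (log2 0.70 ± 0.15, adjusted p = 0.000923), with no overlap in either comparison.

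Ddit3 encodes CHOP, a factor that promotes cell death when stress lasts. It had 40.1, 39.3, 36.8 and 44.6 CPM at P1, and 76.0, 70.6, 76.1 and 71.5 CPM at P3. At P5 the values were 86.1, 81.9, 87.8 and 87.9 CPM, and at P7 115, 92.6, 79.2 and 101 CPM. Each P3 library was above each P1 library and each P5 library above each P3 library, whereas P5 and P7 overlapped. The rise from P1 to P7 was 2.41-fold (log2 1.27 ± 0.098, adjusted p = 1.27e-09), of which the step from P1 to P3 gave 1.83-fold (log2 0.87 ± 0.097, adjusted p = 1.21e-06). From P3 to P7 the rise was 1.32-fold (log2 0.40 ± 0.095, adjusted p = 0.00177).

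Trib3 encodes a pseudokinase that is induced by ATF4 and CHOP and dampens their activity. Its libraries had 48.1, 43.1, 33.6 and 44.1 CPM at P1, 109, 97.9, 95.3 and 74.3 CPM at P3, 106, 97.8, 129 and 124 CPM at P5, and 97.9, 72.5, 70.3 and 80.4 CPM at P7. The P1 libraries were below all others, and P7 overlapped P3 and, by a single library, P5. It was the member called from P1 to P3, with a 2.23-fold rise (log2 1.16 ± 0.14, adjusted p = 2.2e-06). That made 1 of 9 called in either direction, against 8.98% of genes. From P5 to P7 Trib3 fell by 0.51 on the log2 scale (SE 0.13, adjusted p = 0.0118), and its P7 level did not pass the test against P3 (log2 -0.23 ± 0.13, adjusted p = 0.155).

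Ppp1r15a encodes GADD34, the phosphatase subunit that restores eIF2alpha and so ends the response. It had 41.8, 39.8, 42.3 and 42.1 CPM at P1, 50.9, 56.2, 54.4 and 52.7 CPM at P3, 62.2, 62.1, 65.8 and 63.1 CPM at P5, and 70.4, 75.2, 60.1 and 61.6 CPM at P7. The passages followed each other without overlap up to P5, and P7 overlapped P5. The rise from P1 to P7 was 1.61-fold (log2 0.69 ± 0.080, adjusted p = 4.26e-07), and that from P3 to P7 1.25-fold without overlap (log2 0.32 ± 0.079, adjusted p = 0.00248).

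Chac1 encodes an enzyme that degrades glutathione. At P1 it had 26.9, 22.5, 22.0 and 27.0 CPM, and at P7 32.1, 35.6, 33.5 and 32.7 CPM. All P7 libraries were above all P1 libraries, by 1.36-fold (log2 0.44 ± 0.16, adjusted p = 0.0227). Against P3 the groups overlapped (log2 0.27 ± 0.16, adjusted p = 0.166).

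The 2 members that make amino acids did not rise together. Asns, asparagine synthetase, had 166, 162, 158 and 162 CPM at P1, 231, 267, 253 and 242 CPM at P3, 231, 236, 236 and 223 CPM at P5, and 198, 198, 167 and 162 CPM at P7. It was 1.53-fold higher at P3 than at P1 (log2 0.62 ± 0.078, adjusted p = 6.12e-06) and then fell by 0.45 from P3 to P7 on the log2 scale (SE 0.078, adjusted p = 9.52e-05), which left P7 overlapping P1 (adjusted p = 0.0788). Psat1, an aminotransferase of serine synthesis, had 400, 383, 364 and 382 CPM at P1, 422, 418, 469 and 412 CPM at P3, 376, 311, 334 and 265 CPM at P5, and 202, 238, 209 and 167 CPM at P7. Each step from P3 on was without overlap. Psat1 fell by 1.08 from P3 to P7 on the log2 scale (SE 0.11, adjusted p = 1.44e-07), a 2.11-fold change, and by 0.90 from P1 to P7 (SE 0.11, adjusted p = 4.69e-07). Without the fourth P7 library the log2 fold change against P3 was -0.99 (adjusted p = 4.98e-07), just short of the 2-fold rule, so that no member was called there.

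In the steps from P3 to P5 and from P5 to P7, edgeR and DESeq2 called 0 of the 9 members, against 3.89% and 3.47% of genes called by edgeR in either direction. At an unadjusted p under 0.05 there were 6 and 3, a level at which the share of all genes was not computed. By the adjusted p alone, Atf5 and Ppp1r15a rose and Psat1 fell in the first step, and Trib3, Asns and Psat1 fell in the second. Over all genes 13.4% rose and 15.3% fell by the adjusted p in the first step, and 7.67% and 9.1% in the second.

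Other genes of the pathway were read from 8 lists. Among 19 genes of amino acid synthesis and transport, 1 was called higher and 3 lower at P7 than at P1, and 0 higher and 4 lower than at P3. Over all genes tested the shares were 8.1% and 13.3% against P1 and 4.44% and 7.41% against P3, so against P1 the share lower was close to that of all genes. Slc7a11, the cystine carrier, had the largest fall of the list in both comparisons (7.18 ± 2.66 CPM at P7, 24.8 ± 1.34 at P1 and 26.7 ± 4.47 at P3, SD, n = 4). Its log2 fold change was -1.79 ± 0.18 SE against P1 (adjusted p = 7.37e-08) and -1.89 ± 0.18 against P3 (adjusted p = 1.03e-07). Cth, which makes cysteine from cystathionine, was 2.58-fold higher at P7 than at P1 (adjusted p = 7.56e-07) but not past the test against P3 (log2 -0.26, adjusted p = 0.181). The median of the list was 0.0027 against P1 and -0.26 against P3 on the log2 scale, where the medians of all genes were -0.010 and -0.0073.

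Of 14 tRNA synthetases, 12 were higher at P3 than at P1 and 11 lower at P7 than at P3 by the adjusted p alone, with 0 called by edgeR at over 2-fold in either comparison and 12 and 11 at an unadjusted p under 0.05. The shares of all genes by the adjusted p were 16% higher at P3 than at P1 and 26.5% lower at P7 than at P3. Of 14 tested genes in the list of other ATF4 and CHOP targets, 3 were called higher and 1 lower at P7 than at P1, against 8.1% and 13.3% of all genes. Against P3, 1 was called higher and 0 lower, against 4.44% and 7.41%. Nupr1, a small stress-induced nuclear protein, was the one called against P3 (103 ± 12.4 CPM at P7, 50.5 ± 11.7 at P3, log2 1.03 ± 0.15, adjusted p = 1.51e-05). Ero1l, an oxidase of disulfide formation, had the largest rise of that list against P1 (157 ± 11.8 and 62.9 ± 4.29 CPM, log2 1.32 ± 0.095, adjusted p = 5.35e-10), and Gdf15, a stress cytokine, was the one called lower (13.5 ± 2.33 and 27.5 ± 2.64 CPM, log2 -1.02 ± 0.17, adjusted p = 3.11e-05). Against P3 neither was called, with log2 0.26 ± 0.093 for Ero1l (adjusted p = 0.0246) and -0.18 ± 0.17 for Gdf15 (adjusted p = 0.404).

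In the list of 11 tested ATF and CREB family genes, Crem rose (17.0 ± 3.18 CPM at P7, 8.15 ± 2.22 at P1, log2 1.06 ± 0.20, adjusted p = 0.000104), and stood at log2 0.88 ± 0.19 against P3 (adjusted p = 0.000938), short of a call. Creb5 fell most against P3 (7.67 ± 1.5 and 23.9 ± 1.95 CPM, log2 -1.64 ± 0.13, adjusted p = 8.7e-09), and Batf, a gene of very low counts, fell most against P1 (1.17 ± 0.266 CPM at P1 and 0.172 ± 0.159 CPM at P7, adjusted p = 0.00041). None of 15 eIF2alpha kinases and regulators, 18 genes of endoplasmic reticulum chaperones and the other arms of the unfolded protein response, 6 of mitochondrial stress and 7 AP-1 partners of ATF3 was called by edgeR at P7 against P1 or P3. By the adjusted p alone, 3 and 6 of the first list, 3 and 7 of the second, 0 and 2 of the third and 3 and 0 of the fourth were higher and lower than at P1, where 30.5% and 31.9% of all genes were. At an unadjusted p under 0.05 the 4 lists had 9, 10, 3 and 3 in either direction. Against P3 these unadjusted counts were 7, 8, 3 and 3. By the adjusted p alone, 3 and 4, 3 and 3, 1 and 2, and 3 and 0 were higher and lower than at P3. Over all genes the shares were 24.8% and 26.5%.

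Over the 16 passage libraries, the genes most like Atf3 among 9582 genes with an average log2 CPM of at least 3 were Ticam1 (Pearson r = 0.902), Ngfr (0.896), Apod (0.882), Gpr137b (0.877) and Mlph (0.876). These points share their passages and the fourth P7 library, which had the highest level of each of the 5 (318 CPM of Apod, where the other P7 libraries had 129 to 169). Without that library the r with Atf3 was 0.757 to 0.879. Among the other members, r with Atf3 ran from -0.617 for Psat1 to 0.706 for Ddit3, with 0.024 for Atf4.

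Promoter accessibility was read as the strength of the strongest ATAC-seq peak within 1000 bases of a start, given as its percentile by -log10 p among all peaks of the same library. All 9 promoters had a peak in each of the 13 libraries, where in any single library 55.7% to 59.7% of 27025 promoters had one. The lists held 168982 to 186562 peaks at P1, 142384 to 155681 at P3, 182402 to 207965 at P5 and 200376 to 231558 at P7, so a percentile is a rank within lists of different lengths and moves with what else was called. At P7 against P1, 3 members had higher strengths with no overlap (Atf3, Ddit3 and Ppp1r15a), against 9.72% of all promoters, and 3 had lower strengths with no overlap (Atf5, Asns and Psat1), against 17.5%. By fold enrichment over the median of the library's promoter peaks, the 3 higher members still did not overlap and all 3 lower ones did. Ranked among promoter peaks alone, Asns and Psat1 stayed lower without overlap and Atf5 overlapped. At P5 against P1 the counts were 3 higher and 3 lower, against 8.1% and 13.4%, and at P3 against P1 they were 5 higher and 0 lower, against 3.36% and 13.8%. These comparisons share the P1 libraries. P7 was also compared with P3, a comparison added after the data were seen, and 1 member was higher (Ppp1r15a) and 2 lower (Asns and Psat1) with no overlap, against 10.7% and 7.08% of all promoters. Their exact permutation p was 0.1, the smallest that 3 against 3 libraries allow. The background includes promoters that had no peak in either group, which cannot separate. Among promoters with a peak, as all members had, the shares would be higher, and they were not computed.

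**Figure D2:**
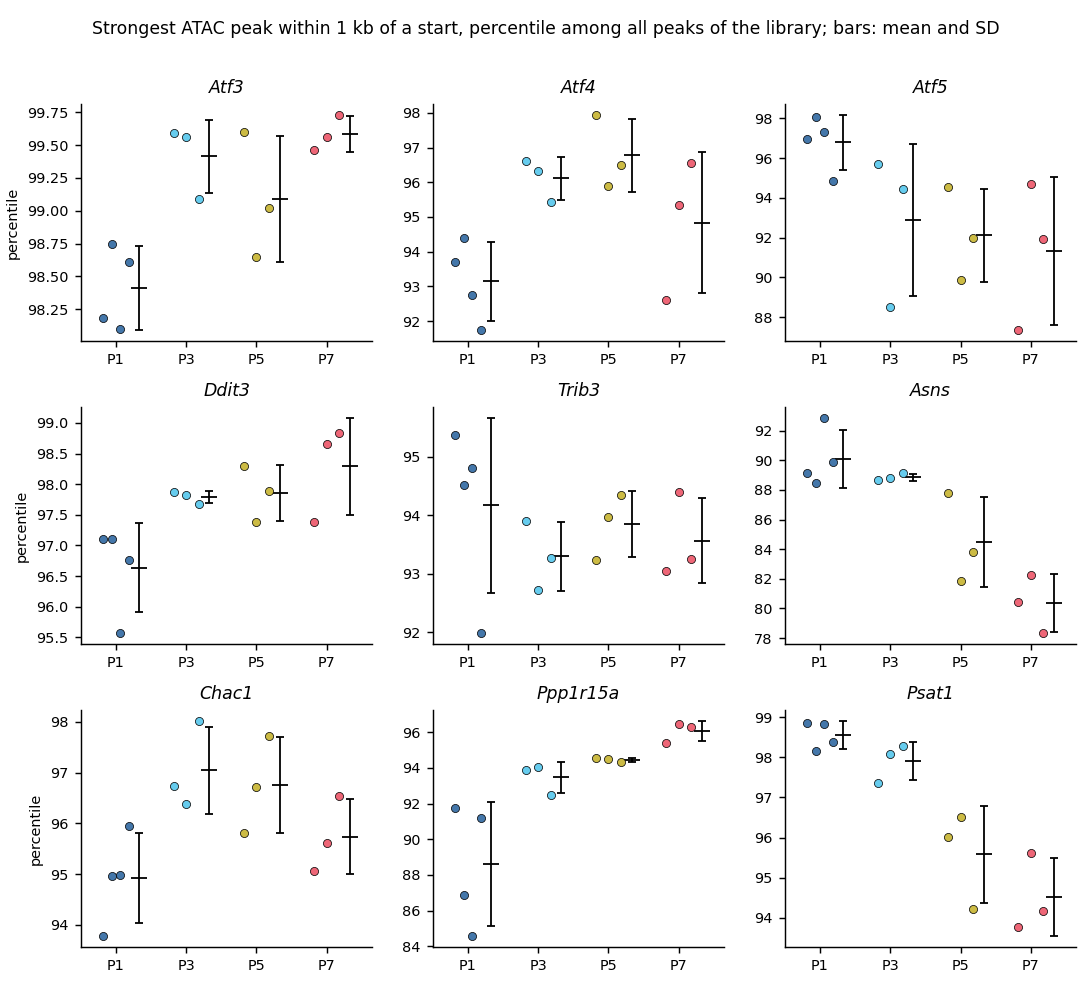
Percentile of the strongest ATAC-seq peak within 1 kb of a start of each member (vertical axes, scaled per gene and not from 0) in 13 libraries of P1, P3, P5 and P7 (horizontal axes); points are libraries, and the bars mean and SD (n = 4 at P1, 3 at the others). Over its own passages, Ppp1r15a was at its highest and Asns at its lowest mean at P7, each with no overlap with P1.

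The Atf3 peak was among the strongest of each library. Its percentile was 98.2, 98.8, 98.1 and 98.6 at P1, 99.6, 99.6 and 99.1 at P3, 99.6, 98.7 and 99.0 at P5, and 99.5, 99.6 and 99.7 at P7. The P3 and P7 libraries were above all P1 libraries and the P5 libraries overlapped them. The mean difference between P7 and P1 was 1.17 percentile points (p = 0.0286 in a two-sided exact permutation test, and 0.134 after adjustment over all promoters). With 4 against 3 libraries no smaller p is possible. A longer annotated start of Atf3 (GENCODE M21, position 191218039 of chromosome 1) had a peak in 1 of 13 libraries, the first of P7, at percentile 81.7.

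Ppp1r15a had the largest gain in rank among the members. Its percentiles were 91.8, 86.9, 84.6 and 91.2 at P1, 93.9, 94.1 and 92.5 at P3, 94.5, 94.5 and 94.3 at P5, and 95.4, 96.5 and 96.3 at P7. Every later library was above P1, by 7.45 points on average at P7, and P7 was above P3 by 2.59 points. Its fold enrichment, not scaled to the library, was 5.89 to 7.14 at P1 and 8.71 to 10.4 at P7. The median fold enrichment of all peaks also differed, with 4.38 to 4.68 at P1 and 5.03 to 5.49 at P7. Unscaled values therefore carry this difference between libraries. Ddit3 had 97.1, 97.1, 95.6 and 96.8 at P1 and 97.4, 98.7 and 98.8 at P7, a difference of 1.66 points with no overlap. For both genes RNA and peak were higher at P7 than at P1.

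Asns had the largest loss in rank. Its percentiles were 89.1, 88.5, 92.9 and 89.9 at P1, 88.7, 88.8 and 89.1 at P3, 87.8, 81.8 and 83.8 at P5, and 80.5, 82.3 and 78.3 at P7. The P7 libraries were below all of P1 and P3, with a mean difference of -9.73 points against P1. Its unscaled fold enrichment was 10.2 to 12.4 at P1 and 9.54 to 12.2 at P7, which overlapped. Psat1 had 98.9, 98.2, 98.8 and 98.4 at P1 and 93.8, 95.6 and 94.2 at P7, with no overlap in rank. Its unscaled fold enrichment of 9.55 to 10.3 at P1 overlapped that of 9.07 to 11.5 at P7. Its RNA was also lower at P7. In replicates 2 and 3 of P7 the strongest Psat1 peak had its summit 1039 and 1033 bases downstream of the first start, where the other libraries had theirs 5 to 19 bases downstream.

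The peak of Atf5 ranked lower at P7 while its RNA was higher, but the groups separated neither by fold enrichment nor among promoter peaks alone. Its percentiles were 97.0, 98.1, 97.3 and 94.8 at P1 and 87.4, 94.7 and 91.9 at P7, a mean difference of -5.45 points with no overlap. Its unscaled fold enrichment was 8.73 to 10.9 at P1 and 7.07 to 10.2 at P7, which overlapped. Its strongest summit lay 750 to 820 bases downstream of the first start, between the first and the second annotated start of the gene. Atf4 was higher than P1 with no overlap at P3 and P5 (means 96.1, 96.8 and 93.1), and overlapped it at P7 (94.8 ± 2.03 against 93.1 ± 1.15, SD). Chac1 and Trib3 overlapped P1 at P7, with differences of 0.82 and -0.60 points. The exact permutation p of the 6 members that did not overlap at P7 was 0.0286 each, the smallest possible, and 0.134 after adjustment over 27025 promoters.

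In the Atf3 knockdown most members fell, while the targeted gene itself was at a low level and measured imprecisely. Trib3 and Chac1 were lower with both hairpins, and so were Atf5, Atf4 and Ddit3, whereas Asns did not pass the test with either. With sh5, 4 of 9 members were called lower (Atf3, Atf5, Trib3 and Chac1), against 3.82% of 13345 genes, and 0 higher, against 1.38%. With sh6, 5 of 9 were called lower (Atf5, Ddit3, Trib3, Chac1 and Psat1), against 10.9%, and 0 higher, against 4.83%. Without the fold limit, 7 were lower and 0 higher with sh5 (18.1% and 17.7% of genes), and 6 lower and 1 higher with sh6 (26% and 23.8%). The median log2 fold change of the 9 was -0.95 with sh5 and -1.03 with sh6, against -0.031 and -0.019 over all genes tested. Atf3 is the target of both hairpins, so its own fall was the aim of the design. It is counted in these medians and among the members lower with sh5, where the others called were Atf5, Trib3 and Chac1. Both comparisons share the same 3 non-targeting libraries.

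**Figure D3:**
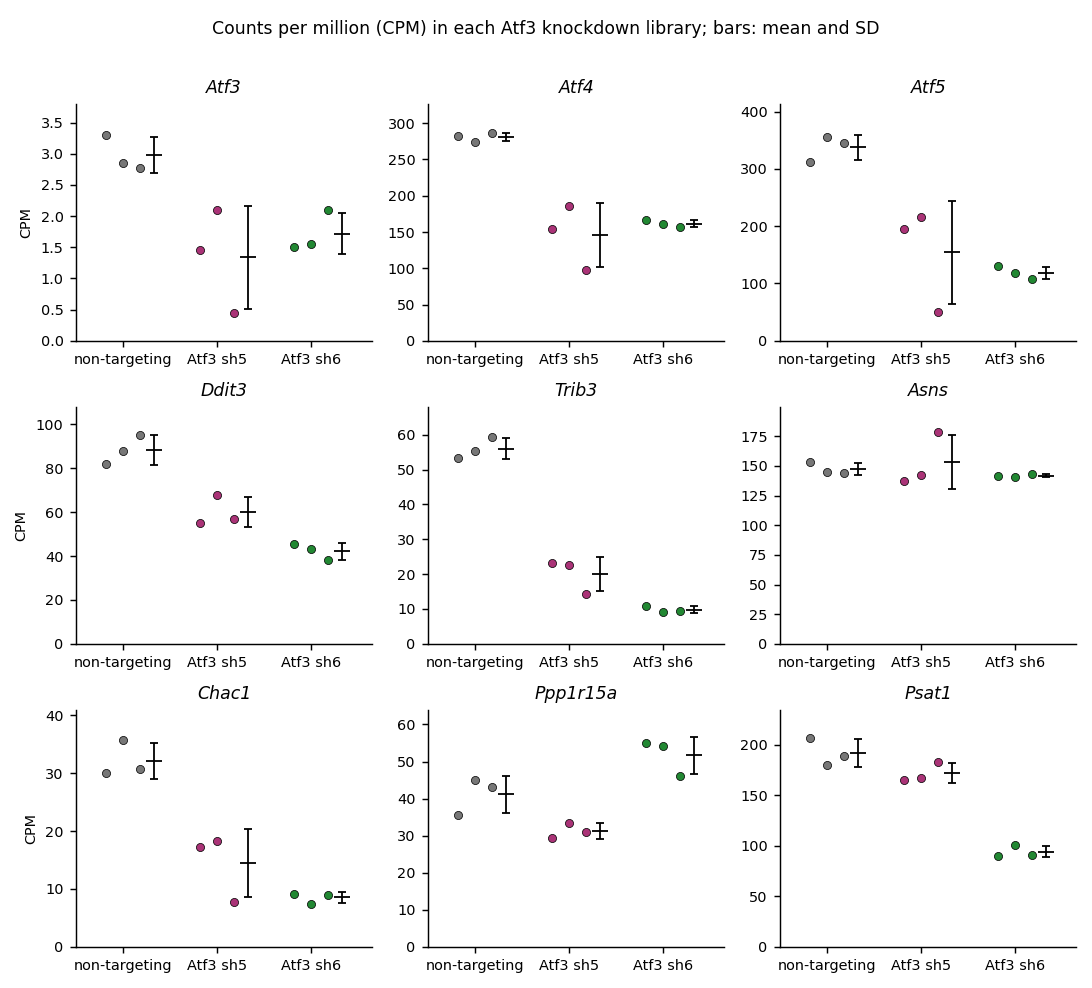
CPM of each member (vertical axes, from 0, scaled per gene) in the 9 libraries of the Atf3 knockdown (horizontal axes, non-targeting, sh5 and sh6); points are libraries, and the bars mean and SD (n = 3). Trib3 and Chac1 were lower in all 6 knockdown libraries, Asns ran from 137 to 179 CPM, and a single sh5 library stood below the other 2 for Atf3, Atf4, Atf5 and Chac1.

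Atf3 was first checked as the target. It had 3.31, 2.85 and 2.77 CPM with the non-targeting hairpin (52 to 78 counts), 1.46, 2.1 and 0.451 CPM with sh5 (8 to 41 counts) and 1.51, 1.56 and 2.09 CPM with sh6 (26 to 36 counts). All 6 knockdown libraries were below the 3 controls. The fall was 2.2-fold with sh5 (log2 -1.14 ± 0.39, adjusted p = 0.0447), and 1.73-fold with sh6, where it did not pass the test (log2 -0.79 ± 0.39, adjusted p = 0.114). The level in the controls was below that of every passage library, though the experiments were normalised separately and this was not tested.

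Trib3 changed most. It had 53.5, 55.3 and 59.3 CPM in the controls, 23.2, 22.6 and 14.4 CPM with sh5, and 10.9, 9.17 and 9.47 CPM with sh6, and the 3 groups did not overlap. The fall was 2.79-fold with sh5 (log2 -1.48 ± 0.16, adjusted p = 0.000283) and 5.69-fold with sh6 (log2 -2.51 ± 0.17, adjusted p = 1.43e-06). Chac1 had 30.0, 35.8 and 30.7 CPM in the controls, 17.3, 18.4 and 7.72 CPM with sh5, and 9.18, 7.43 and 9.01 CPM with sh6. It fell 2.22-fold with sh5 (log2 -1.15 ± 0.26, adjusted p = 0.00745) and 3.76-fold with sh6 (log2 -1.91 ± 0.27, adjusted p = 0.000191).

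Among the transcription factors, Atf5 had 312, 355 and 345 CPM in the controls, 196, 217 and 51.1 CPM with sh5, and 130, 118 and 108 CPM with sh6. Its fall was 2.18-fold with sh5 (adjusted p = 0.0441) and 2.84-fold with sh6 (adjusted p = 0.00875). The third sh5 library was far below the other 2 and below all sh6 libraries.

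Atf4, which had stayed level over passages, had 283, 275 and 286 CPM in the controls, 154, 185 and 98.1 CPM with sh5, and 166, 162 and 157 CPM with sh6. All knockdown libraries were below the controls, by 1.93-fold with sh5 (log2 -0.95 ± 0.18, adjusted p = 0.00355) and 1.74-fold with sh6 (log2 -0.80 ± 0.18, adjusted p = 0.00358). Ddit3 had 81.8, 87.8 and 95.2 CPM in the controls, 55.3, 68.0 and 57.1 CPM with sh5, and 45.4, 43.2 and 38.0 CPM with sh6. Its 3 groups did not overlap, and its log2 fold change was -0.55 ± 0.11 with sh5 (adjusted p = 0.00385) and -1.07 ± 0.11 with sh6 (adjusted p = 1.96e-05).

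The hairpins differed for Psat1 and Ppp1r15a. Psat1 had 207, 179 and 189 CPM in the controls, 165, 167 and 183 CPM with sh5, which overlapped them (log2 -0.16 ± 0.081, adjusted p = 0.147), and 90.3, 101 and 91.3 CPM with sh6 (log2 -1.03 ± 0.083, adjusted p = 4.24e-06). Ppp1r15a had 35.5, 45.0 and 43.1 CPM in the controls, 29.4, 33.5 and 30.8 CPM with sh5, and 55.0, 54.2 and 46.0 CPM with sh6. It was lower with sh5 (log2 -0.40 ± 0.11, adjusted p = 0.022) and higher with sh6 (log2 0.33 ± 0.11, adjusted p = 0.0322).

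Asns had 154, 145 and 144 CPM in the controls, 137, 143 and 179 CPM with sh5, and 142, 140 and 143 CPM with sh6. The sh5 libraries overlapped the controls, and the sh6 libraries lay just below them. Its log2 fold change was 0.05 ± 0.097 with sh5 (adjusted p = 0.692) and -0.06 ± 0.097 with sh6 (adjusted p = 0.653). Tested directly between the hairpins, Trib3 was 2.04-fold lower with sh6 (log2 -1.03 ± 0.17, adjusted p = 0.000623) and was the 1 of 9 called, against 15.8% of genes in either direction. That call was lost without the first or the second sh5 library or the second sh6 library, and Chac1 was called as well without the third sh5 library. Ddit3, Chac1 and Psat1 were also lower and Ppp1r15a higher with sh6 than with sh5 by the adjusted p (log2 0.73 ± 0.11, adjusted p = 0.000427).

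The third sh5 library weighed on the sh5 values. Without it, the log2 fold change with sh5 was -0.71 for Atf3 (adjusted p = 0.0393), -0.68 for Atf5 (adjusted p = 1.19e-05), -0.82 for Chac1 (adjusted p = 5.8e-05) and -1.27 for Trib3 (adjusted p = 1.47e-07). Trib3 was then the only one of the 9 called, and Atf4 stood at -0.70 (adjusted p = 3.39e-06). Without any 1 of the 3 non-targeting libraries, Trib3 and Chac1 were the 2 called with sh5, so the sh5 calls of Atf3 and Atf5 rested on single libraries. The summed level of the 10 fibroblast markers was 39215 to 40975 CPM in the controls, 25685 to 37795 CPM with sh5 and 17179 to 18025 CPM with sh6. That of 8 skeletal muscle markers was 38.4 to 39.99, 16.9 to 19.0 and 199 to 217 CPM. Myod1 and Ckm were at 0 in the controls, Myog, Myod1 and Ckm with sh5, and Myog with sh6. For 10 macrophage markers the sums were 16.5 to 18.1, 19.0 to 24.2 and 13.5 to 14.0 CPM. The part of these lists in the result was not tested.

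Other genes of the pathway fell in some lists and not in others. Of 19 genes of amino acid synthesis and transport, 3 were called lower with sh5 and 6 with sh6, and 0 higher with either, with medians of -0.50 and -0.75 on the log2 scale. Over all genes 3.82% and 10.9% were called lower. Pycr1, a proline synthesis enzyme, had the largest fall with sh5 (9.61 ± 1.37 CPM, controls 24.8 ± 1.24, SD, n = 3; log2 -1.37 ± 0.12, adjusted p = 9.55e-05). Aldh1l2, a mitochondrial folate enzyme, had the largest fall with sh6 (21.9 ± 1.89 CPM, controls 141 ± 11.9; log2 -2.69 ± 0.11, adjusted p = 7.14e-08) and a smaller one with sh5 (102 ± 10.7 CPM, log2 -0.47 ± 0.10, adjusted p = 0.00652).

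Of 15 other ATF4 and CHOP targets, 1 was called lower with sh5 (Gdf15, log2 -1.14 ± 0.26, adjusted p = 0.00785) and 5 with sh6, with medians of -0.65 and -0.63. Over all genes 3.82% and 10.9% were called lower, so the single call with sh5 was near that share. Nupr1 had the largest fall with sh6 (14.0 ± 1.28 CPM, controls 70.9 ± 5.73; log2 -2.34 ± 0.15, adjusted p = 1.09e-06) and was at -0.73 ± 0.14 with sh5 (adjusted p = 0.00412). Among 11 tested ATF and CREB genes, Crem rose with both hairpins (log2 1.02 ± 0.15 with sh5, adjusted p = 0.00101, and 1.35 ± 0.15 with sh6, adjusted p = 3.16e-05), and Creb3l1 fell most with sh6 (log2 -2.12 ± 0.26, adjusted p = 7.51e-05).

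Of 18 genes of endoplasmic reticulum chaperones and the other arms, Herpud1, which serves the degradation of misfolded proteins, was called lower with sh6 (44.7 ± 2.22 CPM, controls 99.5 ± 4.39; log2 -1.15 ± 0.083, adjusted p = 2.03e-06) and not with sh5 (log2 0.15 ± 0.081, adjusted p = 0.171). Of 15 eIF2alpha kinases and regulators, Eif2b3, a subunit of the exchange factor eIF2B, was called higher with sh6 (log2 1.13 ± 0.14, adjusted p = 6.56e-05). Each was the 1 gene called of its list, where 10.9% of all genes were called lower and 4.83% higher with sh6. Of the 15 regulators, 5 were higher and 0 lower with sh5 by the adjusted p, and 8 and 1 with sh6. Of the 18 chaperone genes these counts were 5 and 1 with sh5, and 2 and 7 with sh6. Over all genes 17.7% were higher and 18.1% lower with sh5, and 23.8% and 26% with sh6. None of 14 tRNA synthetases, 6 mitochondrial stress genes and 7 AP-1 partners was called by edgeR with either hairpin. By the adjusted p alone, 0 and 5 synthetases were higher and lower with sh5 and 5 and 3 with sh6, 3 and 1 mitochondrial genes with sh6, and 1 and 0 AP-1 partners with sh6. At an unadjusted p under 0.05 the synthetases numbered 8 with each hairpin in either direction, the mitochondrial genes 1 with sh5 and 4 with sh6, and the AP-1 partners 4 with sh5 and 2 with sh6. The genes most like Atf3 over passages were not uniform here. Apod fell with both hairpins (log2 -0.96 and -1.78), Ticam1 did too (log2 -0.47 and -0.81), Mlph passed the test with sh6 (log2 -1.04), Gpr137b was higher with sh6 (log2 0.53), and Ngfr did not pass it with either (log2 -0.50 and -0.27).

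**Figure D4:**
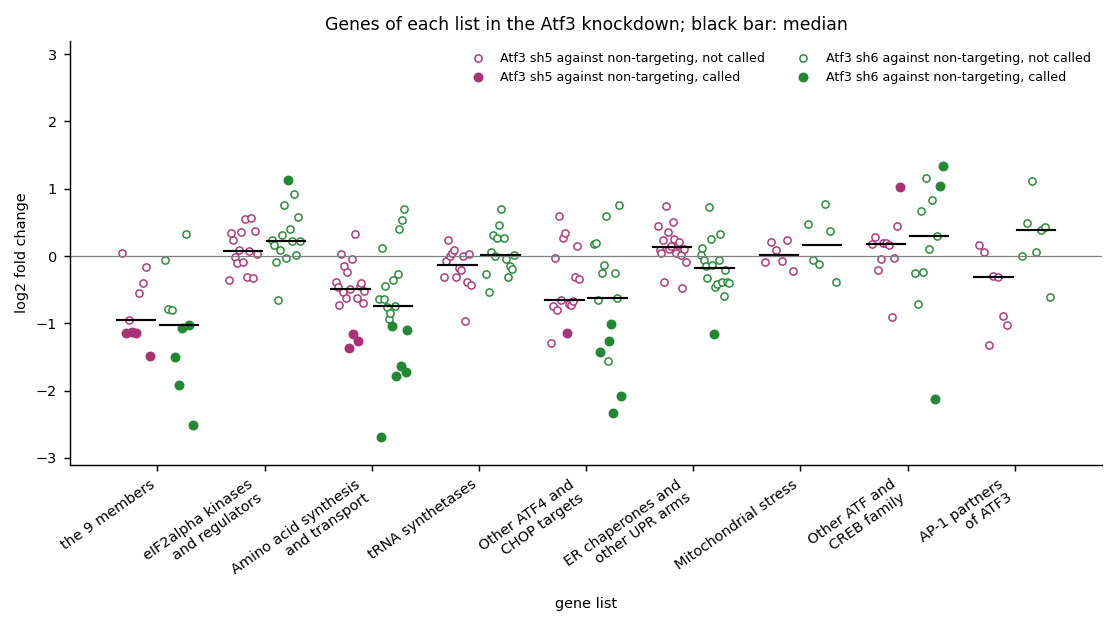
log2 fold change of single genes (vertical axis) with Atf3 hairpins sh5 (purple) and sh6 (green) against the non-targeting hairpin, by gene list (horizontal axis); filled points were called, open points were not, and the black bar is the median of the list. The medians of the members, of amino acid synthesis and transport and of other ATF4 and CHOP targets were below 0 with both hairpins.

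In the Tead1 knockdown, edgeR and DESeq2 called 0 of the 9 members with either hairpin, against 2.71% of 13012 genes with sh3 and 1.53% with sh4 in either direction by edgeR. At an unadjusted p under 0.05 there were 6 with sh3 and 7 with sh4, a level at which the share of all genes was not computed. By the adjusted p alone, 3 members were higher and 3 lower with sh3, against 17.6% and 17.7% of genes. With sh4 2 were higher and 3 lower, against 14.4% and 14.7%. Tead1, a factor of the Hippo pathway, had 572, 508 and 545 CPM in the controls, 268, 284 and 285 CPM with sh3 and 315, 313 and 320 CPM with sh4. Atf3 had 3.81, 4.08 and 4.29 CPM in the controls, 2.96, 2.26 and 2.39 CPM with sh3, and 2.73, 2.48 and 2.59 CPM with sh4. All knockdown libraries were below all controls (log2 -0.68 ± 0.20, adjusted p = 0.00864, and -0.64 ± 0.20, adjusted p = 0.0146). Chac1 was also lower with both (log2 -0.29 ± 0.064, adjusted p = 0.000587, and -0.27 ± 0.064, adjusted p = 0.00157), and Ppp1r15a higher with both (log2 0.31 ± 0.059, adjusted p = 8.17e-05, and 0.20 ± 0.059, adjusted p = 0.009). Atf4 was higher with both as well, without overlap (log2 0.21 ± 0.043, adjusted p = 0.000226, and 0.12 ± 0.043, adjusted p = 0.0439). Of 15 other ATF4 and CHOP targets, 10 were higher and 3 lower by the adjusted p alone with each hairpin. Over all genes 17.6% were higher and 17.7% lower with sh3, and 14.4% and 14.7% with sh4. Ddit3 had 63.6, 68.0 and 63.4 CPM in the controls and 88.7, 86.2 and 80.3 CPM with sh3 (log2 0.39 ± 0.052, adjusted p = 4.83e-07), but 70.5, 69.4 and 70.6 CPM with sh4, where the rise did not pass the test (log2 0.11 ± 0.053, adjusted p = 0.119).

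In the E2f4 knockdown, both tools again called 0 of the 9, against 1.67% of 12310 genes, with 5 at an unadjusted p under 0.05. By the adjusted p alone 0 members were higher and 4 lower, against 10% and 7.79% of all genes. E2f4, a cell cycle factor, had 59.6, 60.8 and 59.6 CPM in the controls and 21.6, 20.4 and 21.8 CPM with sh1. Psat1 had 464, 477 and 460 CPM in the controls and 352, 361 and 328 CPM with sh1, a fall without overlap (log2 -0.43 ± 0.059, adjusted p = 0.000204). Atf4, Atf5 and Trib3 were also lower, with log2 fold changes of -0.19 (adjusted p = 0.0275), -0.20 (adjusted p = 0.0301) and -0.29 (adjusted p = 0.0249). Atf3 did not pass the test (1.82, 1.86 and 2.19 CPM with sh1 from 17 to 20 counts, controls 3.3, 2.95 and 2.61 CPM; adjusted p = 0.182). In the list of amino acid synthesis and transport, 13 of 19 genes were lower and 0 higher by the adjusted p alone, against 7.79% and 10% of all genes. The 1 called was Gpt2, an alanine aminotransferase (log2 -1.14 ± 0.081, adjusted p = 6.77e-07). Only this list is given for this experiment. In the E2f4 overexpression the same list had 5 genes higher and 5 lower by the adjusted p, against 28.9% and 28.2% of all genes.

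In the E2f4 overexpression, 1 of 9 members was called (Chac1), against 18.1% of 13199 genes in either direction. E2f4 itself had 35.5 and 47.5 CPM with the vector and 1118 and 1180 CPM when overexpressed. Chac1 had 25.1 and 35.5 CPM with the vector and 11.8 and 8.46 CPM with E2f4, a 2.96-fold fall (log2 -1.57 ± 0.20, adjusted p = 0.000112). Ddit3 had 28.8 and 33.3 CPM, and 16.8 and 16.9 CPM with E2f4 (log2 -0.88 ± 0.13, adjusted p = 0.00031). Trib3 was also lower (log2 -0.34 ± 0.12, adjusted p = 0.0294). Atf3 had 2.75 and 3.17 CPM with the vector and 1.64 and 2.15 CPM with E2f4, without overlap but not past the test (log2 -0.65 ± 0.28, adjusted p = 0.0683).

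Psat1 went the other way, with 400 and 379 CPM against 536 and 552 CPM (log2 0.48 ± 0.098, adjusted p = 0.00173), and so did Ppp1r15a (log2 0.41 ± 0.12, adjusted p = 0.0121). Atf4 had 150 and 276 CPM with the vector and 332 and 329 CPM with E2f4, and Atf5 had 184 and 324 against 319 and 339 CPM. The first vector library was far below the second for both. Without that library the log2 fold change of Atf4 was 0.26 in place of 0.64 (adjusted p = 0.0249 in place of 0.0243) and that of Atf5 0.02 in place of 0.37. Without the second vector library Atf4 stood at 1.14 and was called. With 2 libraries a group, the values of Atf4 and Atf5 rested on which vector library was used.

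**Figure D5:**
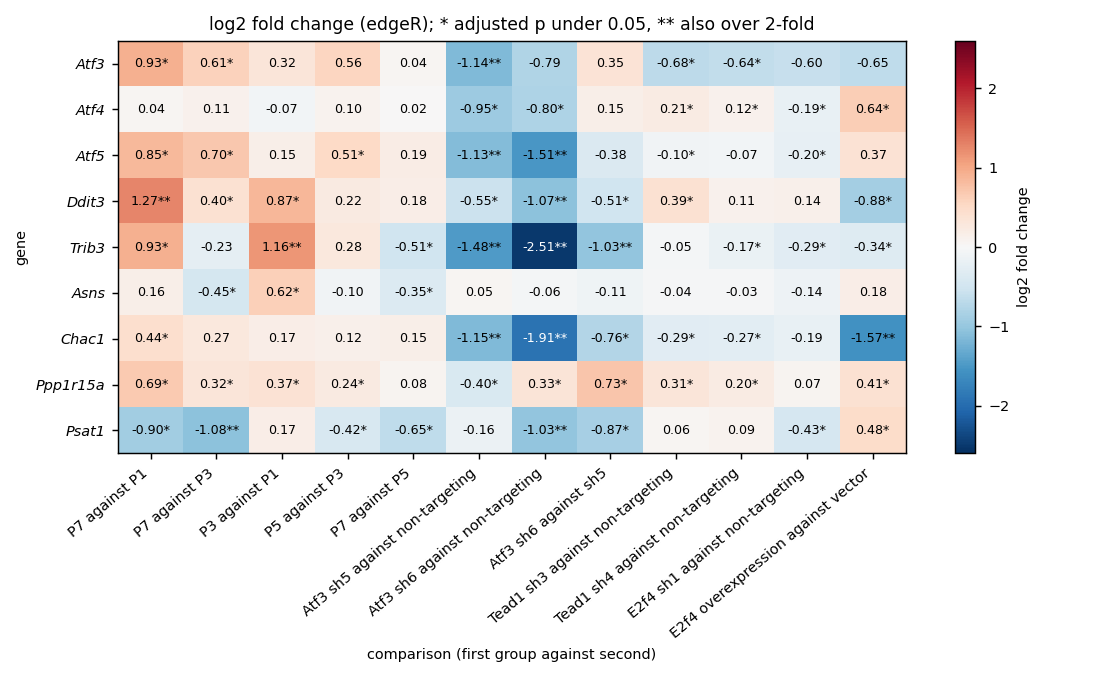
log2 fold change of each member (rows) in each of the 12 comparisons (columns); colour and number give the value, 1 star an adjusted p under 0.05 in edgeR and 2 stars a change over 2-fold as well. Trib3 with Atf3 sh6 had the largest fall (-2.51) and Ddit3 at P7 against P1 the largest rise (1.27).

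Reads were counted without regard to strand, so reads of overlapping genes cannot be told apart. Nup62 and Il4i1b, on the other strand, each share 4.11% of the exon length of Atf5, Mbd6 and Mars1 share 3.03% and 2.79% of that of Ddit3, and Tulp2 shares 0.471% of that of Ppp1r15a. The other 6 members share exon bases with no other annotated gene.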

How the data were processed

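RNA-seq, ATAC-seq and reduced representation bisulfite sequencing were carried out in 75 samples, of which the 44 RNA-seq and 13 ATAC-seq samples were used. The bisulfite data were not analysed here. For RNA-seq, the authors used Trimmomatic 0.39 for trimming and HISAT2 2.2.1 for alignment to mm10, and deposited raw counts per gene from HTSeq 0.12.4 without regard to strand. Rows that name no gene, such as unaligned reads, held 7.5% to 16.8% of the counts in the 28 tables that list them, and were left out. For ATAC-seq, the authors aligned with Bowtie2 2.3.5.1 and called peaks per sample with MACS2. The deposited peak lists give fold enrichment and -log10 p and q, with no counts, so the depth behind a peak is unknown.

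Each experiment was fitted separately and over all its groups with edgeR 4.0.16 (R 4.3.3), with low genes filtered by filterByExpr, TMM normalisation, the quasi-likelihood test and Benjamini-Hochberg adjustment over all genes tested. The SE is the absolute log2 fold change divided by the root of the F statistic. Calls required an adjusted p below 0.05 and more than 2-fold change. CPM values are after TMM scaling. Peak strengths were compared with a two-sided exact permutation test, adjusted over 27025 promoters. Sequences and starts are from RefSeq (GRCm38.p6, the same assembly as mm10), to which 24079 of 24984 gene symbols matched. Replicates differed beyond counting noise in all 50 pairs, and counting intervals would cover counting error only. The edgeR script was tested on simulated data.

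The members, the 8 pathway lists and the marker lists were chosen with earlier results of these data known. All members were named, and so were the 5 genes with the highest correlation with Atf3 over passages. From each list the called genes with the largest rise and the largest fall were named. This was done only for P7 against P1 or P3 and for the Atf3 hairpins against the non-targeting one. Gpt2 in the E2f4 knockdown was named outside this rule. Groups share replicate numbers, but the deviations of libraries of the same number did not correlate over 0.1 in all pairs of any experiment with 3 or more pairs. In the passage series, however, replicate 4 correlated at 0.105 to 0.276 between all passages and matched its own number best each time. For the other replicate numbers the range was -0.262 to 0.235. Each P1 library also matched the P3 library of its own number best, at 0.078 to 0.267. Each E2f4 non-targeting library likewise matched the sh1 library of its number best, at 0.023 to 0.034. The main tests took the libraries as unpaired. The labels tie no number to an animal or day, and what the libraries of replicate 4 share was not tested. The alternatives were DESeq2 1.42.0 and its size factors, no filter, at least 10 counts in every library, a replicate block, a fit of only the groups compared, other peak measures, and leaving out each library.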

Additional observations from a re-analysis of the deposited data

How the results depend on the processing

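Of 627 log2 fold changes of members under other settings with all libraries, 622 kept their direction and side of the threshold, and of 720 with 1 library left out, 679 did. Most of these values were not called in the main setting, so these shares do not measure how stable the calls were. A call was lost in 4 of the 627 and in 18 of the 720, and gained in 6 of the 720. Fitting only the groups compared left 2 members called with Atf3 sh5 (Trib3 and Chac1) in place of 4, and comparing peaks by fold enrichment left 3 without overlap at P7 against P1 in place of 6, with Atf5, Asns and Psat1 lost. With 1 library left out, the members called ran from 1 to 3 for P7 against P1, 0 to 1 for P7 against P3, 1 to 5 with sh5, 3 to 5 with sh6, 0 to 2 between the hairpins and 1 to 2 with E2f4 overexpression. Atf3 was added at P7 against P1 without the first or the third P7 library, Trib3 without the latter, and Atf4 with sh5 without the second sh5 library. With sh6, Ddit3 (-0.99) was lost without the third sh6 library, and Psat1 without that library (-0.998), the first sh6 library (-0.99) or the first non-targeting library (-0.97).

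With a replicate block, Atf3 lost its call with sh5 (adjusted p = 0.0552, 3 members called) and its change from P5 to P7 turned to -0.00405. DESeq2 did not call Atf5 with sh5 (adjusted p = 0.06). The Trib3 peak difference at P7 against P1 turned to 0.68 when ranked among promoter peaks only. Small changes also turned with single libraries left out. Atf4 ran from -0.049 to 0.097 for P7 against P1, -0.14 to 0.0086 for P3 against P1, -0.080 to 0.065 for P7 against P5 and -0.088 to 0.36 between the hairpins. Atf3 ran from -0.39 to 0.21 for P7 against P5 and -0.069 to 0.83 between the hairpins. Asns ran from -0.049 to 0.12 with sh5, -0.18 to 0.00077 between the hairpins, -0.059 to 0.0049 with Tead1 sh3 and -0.046 to 1.4e-05 with Tead1 sh4. Chac1 ran from -0.039 to 0.26 for P5 against P3, Trib3 from -0.0996 to 0.0055 with Tead1 sh3 and Ddit3 from -0.059 to 0.25 with E2f4 sh1. The cause was not tested. The 8 to 41 counts of Atf3 with sh5 limit its precision, as does the number of ATAC-seq libraries, with which the smallest adjusted p over all promoters was 0.134 for P7 against P1.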
